A study of Mus musculus with 6 samples.

Results

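The genes described here encode the MyD88 arm of Toll-like receptor and interleukin-1 receptor signalling and the proteins that restrain it. They were taken by symbol from the deposited TPM table (a level scaled for transcript length and library total): Myd88, Tirap, Irak1, Irak2, Irak3, Irak4, Traf6, Tollip and Tnfaip3. All 9 symbols were found, each with 1 of the 56636 rows, and all 9 passed the filter, a mean over the 6 libraries of 1 TPM or more, as did 12092 genes in all. The cells were RAW264.7, a mouse macrophage-like tumour line of wild-type genotype, and all libraries therefore come from the same line. Vehicle was given to the cells of 3 libraries and 25-HC to those of the other 3, for 24 h in both groups. The agent is named only by that abbreviation and its dose is not in the labels used here. Nothing states that the libraries are separate cultures, so the p-values describe only how these libraries spread, and that spread may be technical.

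When a Toll-like receptor or the interleukin-1 receptor is engaged, the adaptor MyD88 binds its cytoplasmic domain, with TIRAP bridging them at some Toll-like receptors. MyD88 gathers the kinases IRAK4, IRAK1 and IRAK2, which pass the signal to the ubiquitin ligase TRAF6 and from there to NF-kB and MAP kinases. IRAK3 (IRAK-M) is an IRAK relative with little kinase activity that limits this complex in macrophages, TOLLIP binds IRAK1 and holds it back, and TNFAIP3 (A20) edits ubiquitin chains downstream of TRAF6.

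Of the 9 genes, Irak3 stood apart between the groups most clearly. It was at 3.46, 0.96 and 6.23 TPM in vehicle 1, 2 and 3, against 15.07, 14.95 and 15.23 TPM with 25-HC. Traf6 and Myd88 were also higher with 25-HC than in any vehicle library, by narrow margins over vehicle 3. The other 6 genes overlapped, with vehicle 3 within or above their 25-HC range. No member passed the test across all genes (0 of 9 in limma with Benjamini-Hochberg adjustment, against 0.00827% of all genes higher and 0% lower), and 2 of 9, Irak3 and Traf6, had an unadjusted p under 0.05 with a higher level (8.24% of all genes were higher and 2.94% lower at that level). The 3 of 9 members without overlap compare with 22.6% of all genes tested that were higher in every 25-HC library, and the 0 of 9 lower with 8.1%. The count of separated members is thus not far from the background.

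RefSeq promoter windows (build GRCm38.p6, 250 bases before to 50 after a transcription start) were found for all 9 genes, 13 windows in all. These coordinates belong to that build and not to GRCm39, which the submitters' processing notes name for the TPM values. The windows of 3 genes are shown: Irak3, the member with the clearest difference, Tnfaip3, a textbook NF-kB target of the feedback loop, and Myd88, the central adaptor. Capitals mark matches, on either strand, to the motifs searched: the NF-kB consensus, the E-box CACGTG, the sterol element TCACNCCAC, the interferon element (TTTC, any 2 bases, TTTC) and the amino acid response element TGATGNAA. The windows lie at chr10:120201548-120201847 for Irak3, chr10:19015361-19015660 for Tnfaip3 and chr9:119339969-119340268 for Myd88, all on the minus strand.
Irak3: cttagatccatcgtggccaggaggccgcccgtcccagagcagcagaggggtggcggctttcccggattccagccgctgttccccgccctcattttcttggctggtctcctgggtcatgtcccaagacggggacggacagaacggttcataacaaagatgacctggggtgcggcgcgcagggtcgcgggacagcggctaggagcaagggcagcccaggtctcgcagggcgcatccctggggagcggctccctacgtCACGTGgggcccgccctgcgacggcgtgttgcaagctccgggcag
Tnfaip3: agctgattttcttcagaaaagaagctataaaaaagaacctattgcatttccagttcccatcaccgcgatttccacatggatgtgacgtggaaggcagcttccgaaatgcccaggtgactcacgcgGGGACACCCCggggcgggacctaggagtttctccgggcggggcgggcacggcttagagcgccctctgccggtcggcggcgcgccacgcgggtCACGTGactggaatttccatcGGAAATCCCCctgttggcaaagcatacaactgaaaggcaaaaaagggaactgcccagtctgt
Myd88: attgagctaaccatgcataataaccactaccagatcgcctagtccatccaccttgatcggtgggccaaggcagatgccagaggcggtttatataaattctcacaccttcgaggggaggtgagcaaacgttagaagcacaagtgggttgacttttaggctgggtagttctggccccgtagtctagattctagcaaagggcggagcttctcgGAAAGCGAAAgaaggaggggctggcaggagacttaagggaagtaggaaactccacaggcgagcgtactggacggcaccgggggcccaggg
The Irak3 window holds an E-box at bases 256 to 261, just after the start, and the other Irak3 window holds no match. The E-box occurs in 7.15% of the 32851 mouse windows. The Tnfaip3 window holds the E-box and 2 NF-kB matches, at bases 126 to 135 and 239 to 248, a motif found in 4.51% of windows. The Myd88 window holds the interferon element on the reverse strand at bases 211 to 220 (3.44% of windows). The sterol element (1.24% of windows) was in none of the 13 windows, and the amino acid response element (3.97%) was only in a downstream Tnfaip3 window not printed here. The motifs do not overlap each other in these windows. A match is a description of the letters and not evidence that a factor binds there.

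The libraries were unlike in spread, which bears on each value that follows. The number of genes at 1 TPM or more was 9492 in vehicle 2, 11238 in vehicle 1 and 11971 to 12005 in vehicle 3 and the 25-HC libraries (vehicle 3 at 11994). Set against the mean of the 25-HC libraries, the longest transcripts (upper tertile of length) had a median log2 difference of -1.63 in vehicle 2 and -0.70 in vehicle 1, against -0.55 and 0.027 for the shortest (lower tertile). In vehicle 3 these medians were 0.059 and 0.059. Members have longest annotated transcripts of 2458 (Myd88) to 6199 bases (Tnfaip3), and the part that this trend has in their differences was examined only through a length correction, in which a smooth trend on length is subtracted in each library. The median log2 difference over all genes tested was 0.52 on log2(TPM + 1). It was 0.0085 after each library was divided by its median ratio to the geometric mean of all 6 libraries. Differences of members are therefore given both ways. Macrophage markers were present (9 of 10 at a mean of 1 TPM or more, summing to 1735 to 2595 TPM in vehicle and 2537 to 2558 TPM in 25-HC), except Mertk, at 0 in all 6 libraries. Markers of lymphocytes, neutrophils, fibroblasts and epithelial cells summed to at most 4.73, 4.63, 0.76 and 0.27 TPM, with Camp, Pdgfra and Krt5 (of neutrophils, fibroblasts and epithelial cells) at 0 in every library. In bulk RNA, fewer cells that express a gene and less RNA per cell cannot be told apart.

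**Figure D1:**
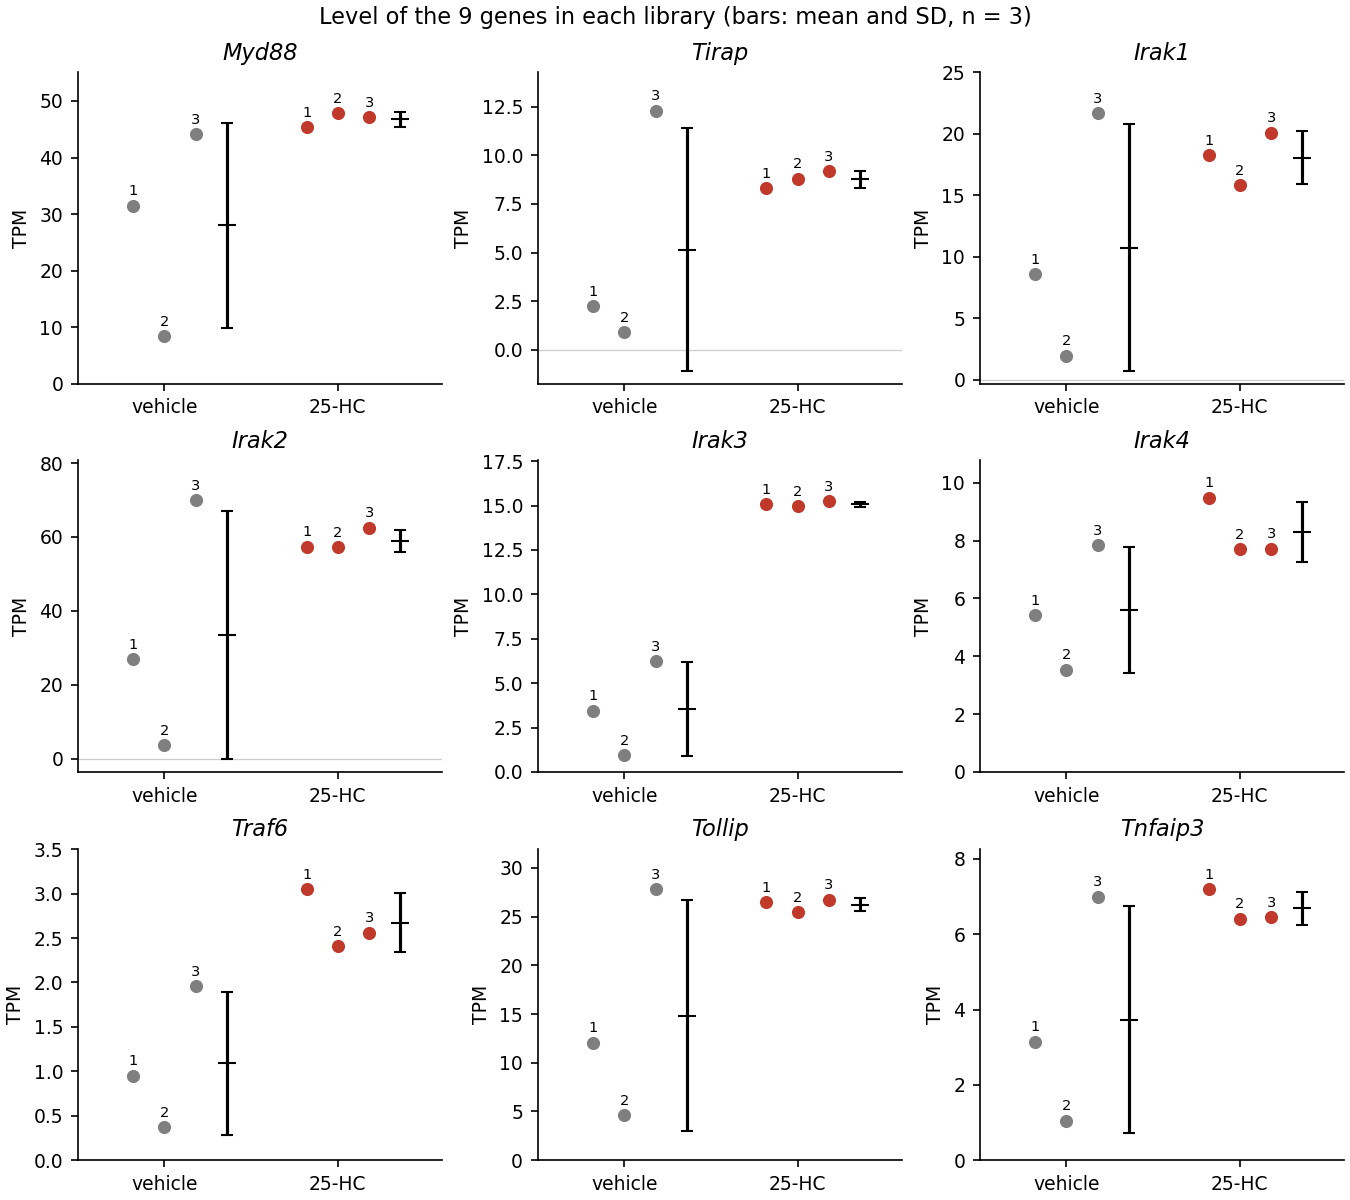
TPM (vertical axis) of each of the 9 genes in the vehicle (grey) and 25-HC (red) libraries, with points numbered by replicate and bars giving the mean and SD (n = 3). The vehicle points scatter widely in all panels, with vehicle 2 lowest, and only the panel of Irak3 shows a wide gap, between 6.23 and 14.95 TPM.

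The adaptors come first in the pathway. Myd88 was at 31.48, 8.39 and 44.09 TPM in vehicle 1, 2 and 3, against 45.32, 47.86 and 47.13 TPM with 25-HC. The groups did not overlap, but the highest vehicle library and the lowest 25-HC library were 44.09 and 45.32 TPM. Its log2 difference was 1.00 (SE 0.59, limma adjusted p = 0.393), or 0.39 after median-ratio rescaling and 0.32 without vehicle 2. Tirap, the bridging adaptor, was at 2.24, 0.91 and 12.30 TPM in vehicle, against 8.32, 8.80 and 9.18 TPM with 25-HC. Vehicle 3 exceeded every treated library, so that the groups overlapped and the fold depended on the vehicle library taken: the 25-HC mean was 1.70 times the vehicle mean but 0.71 times vehicle 3. The log2 difference of Tirap was 1.17, or 0.74 after median-ratio rescaling and 0.57 without vehicle 2. Without vehicle 3 it was 1.97 and passed the test (limma adjusted p = 0.0482), in a fit where 722 genes did. On the opposite strand, the exons of Myd88 share 290 bases (11.3%) with Acaa1a, and those of Tirap 39 bases with Srpr and 446 bases with the antisense gene Gm39318. Whether the authors' counting used strand is not given in the sources used here, so reads in these bases cannot be assigned with certainty.

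Irak4, the kinase that starts phosphorylation in the complex, had the smallest fold range among vehicle libraries (2.22-fold), at 5.42, 3.53 and 7.85 TPM in vehicle, against 9.49, 7.70 and 7.72 TPM with 25-HC. Its groups overlapped and its log2 difference of 0.54 (SE 0.34, limma adjusted p = 0.395) was 0.024 above the median of all genes. That difference turned to -0.0028 after median-ratio rescaling, -0.13 after quantile normalization and -0.087 after length correction. Its exons share 395 bases (7.9%) with Twf1 on the opposite strand.

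Irak1, the kinase that TOLLIP holds and IRAK4 phosphorylates, was at 8.60, 1.96 and 21.69 TPM in vehicle, against 18.28, 15.84 and 20.10 TPM with 25-HC. All 3 treated libraries were below vehicle 3 and above the other vehicle libraries. Its log2 difference was 1.14 (SE 0.72, limma adjusted p = 0.395), 0.62 after median-ratio rescaling and 0.36 without vehicle 2. Irak2, the kinase that sustains late signalling, had the widest fold range among vehicle libraries, at 26.95, 3.61 and 69.87 TPM (19.4-fold). In 25-HC it was at 57.32, 57.25 and 62.45 TPM, a 1.09-fold range, again below vehicle 3. Its log2 difference of 1.52 had an SE of 0.95 (limma adjusted p = 0.394), and was 0.95 after median-ratio rescaling and 0.43 without vehicle 2.

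Irak3, the inhibitory relative, was the only IRAK gene whose groups did not overlap. Its 25-HC values spanned 1.02-fold, and their mean of 15.1 ± 0.140 TPM (SD, n = 3) was 4.25 times the vehicle mean of 3.55 ± 2.64 TPM (SD, n = 3) and 2.42 times vehicle 3. The log2 difference was 2.01 (SE 0.50), 1.49 above the median of all genes, with an unadjusted p of 0.0065 and an adjusted p of 0.389 in limma, and higher in 3 of 3 treated libraries. By unadjusted p it ranked 134 of 12092 genes. Every 25-HC library was at least 2 times vehicle 3, which held for 3.29% of all genes tested and for no other member.

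The separation of Irak3 held under each rescaling. After median-ratio rescaling the highest vehicle value was 4.72 and the lowest 25-HC value 11.9 rescaled TPM (log2 difference 1.55, SE 0.24, limma adjusted p = 0.184). After length correction the difference was 1.43 (SE 0.15) and passed limma with an adjusted p of 0.0451, in a fit with 16 genes higher and 3 lower of 11132. With a further correction for GC content, chosen after the data were seen, it was 1.38 (SE 0.14, limma adjusted p = 0.0451, 14 genes higher and none lower). It was the only member that passed in either corrected fit. Without vehicle 3 it passed as well (2.44, limma adjusted p = 0.0482), in a fit where 722 genes did, Tirap among them. Without vehicle 2 it was 1.50 (limma adjusted p = 0.0982). Its exons share 192 bases (5.2%) with Tmbim4 on the opposite strand, a far more abundant transcript at 117.81, 53.91 and 141.59 TPM in vehicle, against 155.91, 137.54 and 165.63 TPM with 25-HC. The part of Tmbim4 reads in the Irak3 value was not tested.

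Downstream of the kinases, Traf6, the ubiquitin ligase, was the least abundant member, at 0.95, 0.37 and 1.96 TPM in vehicle, against 3.05, 2.41 and 2.56 TPM with 25-HC. Each treated library was above each vehicle library, with 2.41 against 1.96 TPM at the nearest. Its log2 difference was 0.88 (SE 0.35, limma unadjusted p = 0.0427, adjusted p = 0.389). It was 0.57 after median-ratio rescaling, and 0.11 with overlapping groups after length correction. Its longest transcript, at 6169 bases, is the second longest of the 9.

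The inhibitors other than Irak3 overlapped between groups. Tollip, an adaptor that binds IRAK1 and ubiquitin, was at 12.07, 4.63 and 27.83 TPM in vehicle, against 26.46, 25.47 and 26.74 TPM with 25-HC. Vehicle 3 was the highest of the 6 libraries, and the log2 difference was 1.08 (SE 0.59, limma adjusted p = 0.389). Median-ratio rescaling gave 0.51, length correction 0.42 and the fit without vehicle 2 0.49. Tnfaip3, the ubiquitin-editing enzyme A20, was at 3.15, 1.05 and 7.0 TPM in vehicle, against 7.20, 6.41 and 6.45 TPM with 25-HC. Its log2 difference of 0.91 (SE 0.52, limma adjusted p = 0.389) became 0.47 after median-ratio rescaling and 0.14 after length correction. The feedback inhibitor Tnfaip3 and the inhibitory Irak3 were at 0.96 and 2.42 times vehicle 3 with 25-HC.

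**Figure D2:**
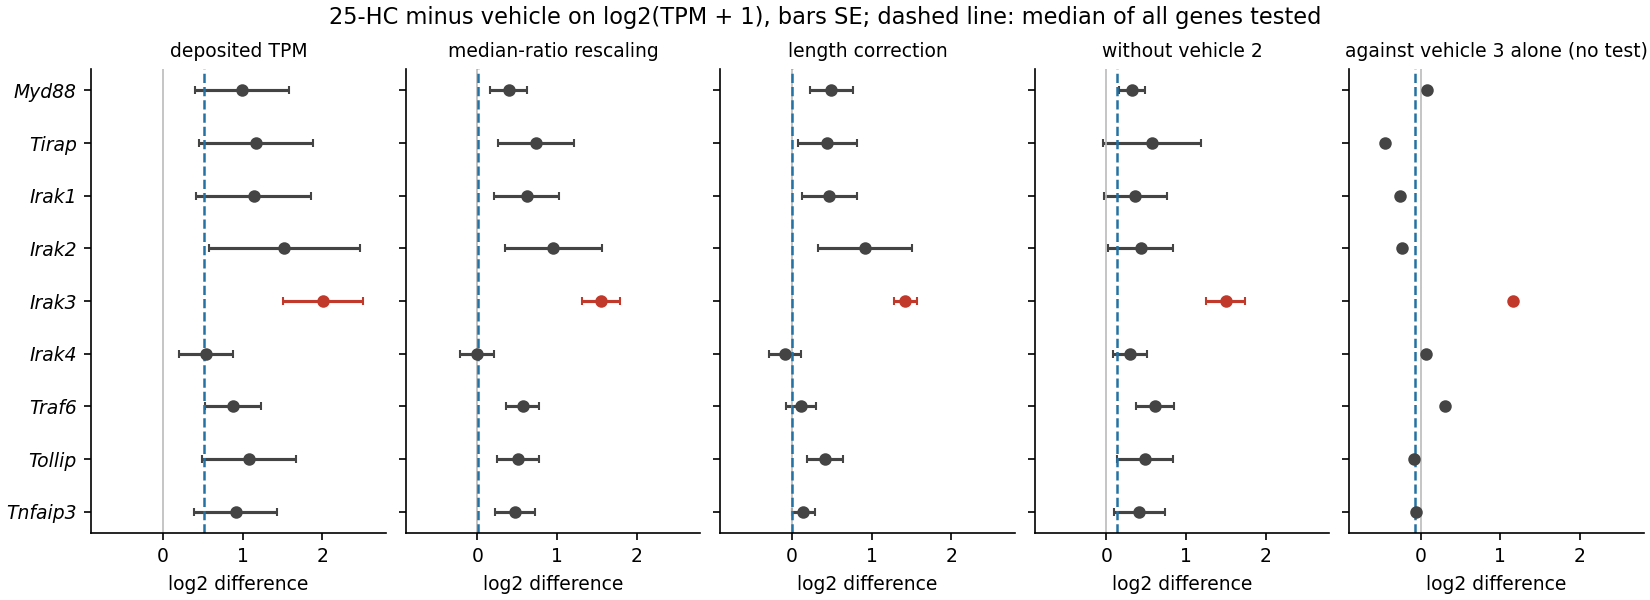
Log2 difference (25-HC minus vehicle, horizontal axis) of the 9 genes under 5 settings, with the SE as bars, Irak3 in red and the median of all genes tested as a dashed line. Irak3 is at 2.01, 1.55, 1.43, 1.50 and 1.15 from left to right, to the right of every other member in each panel, and against vehicle 3 alone 5 members are below 0.

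Over the 9 members the median log2 difference was 1.08, against 0.52 over all genes tested. Without vehicle 2 it was 0.43 (all genes 0.13) and without vehicle 3 it was 1.67 (all genes 0.81). It was 0.57 after median-ratio rescaling (3 of 9 without overlap, against 18.7% of all genes higher, and 0 of 9 lower, against 17.9%) and 0.45 after length correction (2 of 9 higher, against 17.1%, and 0 of 9 lower, against 18.7%). Against vehicle 3 alone the median was -0.059, with 3 of 9 members higher in every 25-HC library (28.5% of all genes) and 4 of 9 lower (45.7%). Without vehicle 3 all 9 members were separated upward, as were 59.5% of all genes.

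Ratios between members of the same library do not move with a factor that scales the whole library. The ratio of Irak3 to Irak4 was 0.638, 0.272 and 0.794 in vehicle 1, 2 and 3 and 1.59, 1.94 and 1.97 in the 25-HC libraries. Irak4 transcript exceeded Irak3 in all 3 vehicle libraries, and Irak3 exceeded Irak4 in all 3 treated ones. The difference was 1.82 on the log2 scale, a 3.53-fold higher ratio (exact permutation test, two-sided p = 0.1, adjusted p = 0.3 over 6 ratios, where 0.1 is the smallest p that 3 against 3 libraries can give). The ratios of Irak1 to Irak4 (p = 0.5, exact permutation test) and Irak2 to Irak4 (p = 0.4) overlapped between groups.

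The ratio of Tnfaip3 to Traf6 was 3.32, 2.84 and 3.57 in vehicle and 2.36, 2.66 and 2.52 in 25-HC, lower in each treated library (log2 difference -0.36, exact permutation p = 0.1, adjusted p = 0.3). That difference is on log2(TPM). On log2(TPM + 1), without correction, Tnfaip3 and Traf6 had differences of 0.91 and 0.88, so that Traf6 no longer rose more than Tnfaip3. After length correction, also on log2(TPM + 1), the difference of the ratio was 0.032. Tollip to Myd88 was at 0.383 to 0.631 in vehicle and 0.532 to 0.584 in 25-HC, and Tirap to Myd88 at 0.0712 to 0.279 and 0.184 to 0.195, both with overlap (exact permutation p = 0.8 and 0.4).

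**Figure D3:**
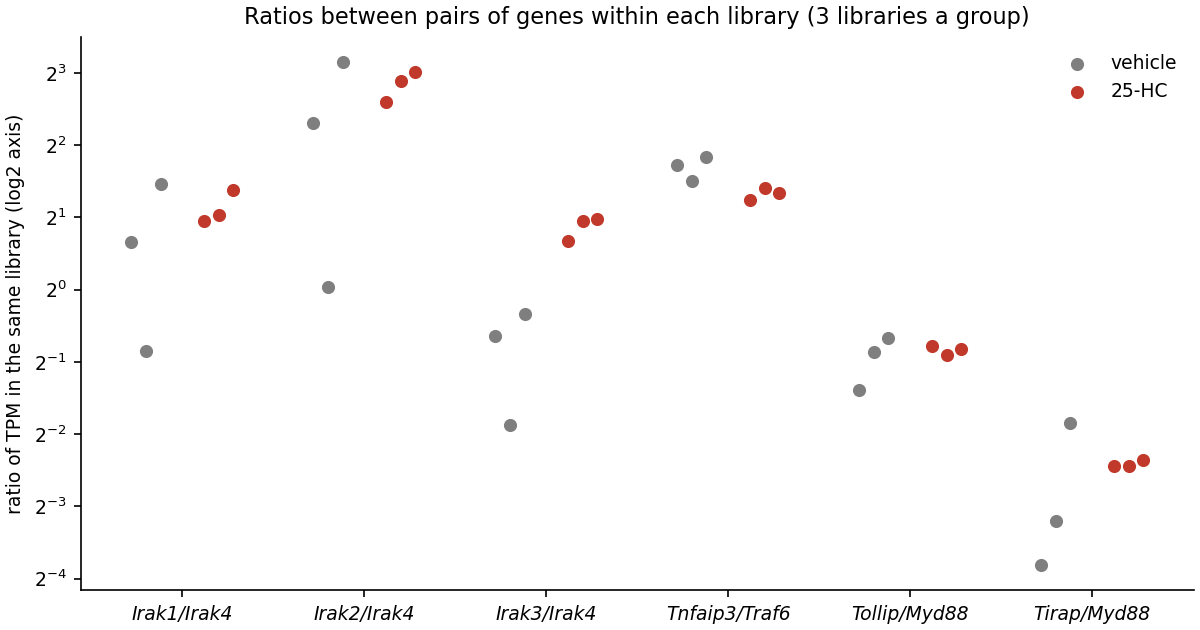
Ratio of TPM between 2 genes of the same library (vertical log2 axis) for 6 pairs, with vehicle in grey and 25-HC in red and 1 point per library. The points of Irak3 to Irak4 lie at 0.272 to 0.794 in vehicle and 1.59 to 1.97 in 25-HC. Those of Tnfaip3 to Traf6 do not overlap either, at 2.84 to 3.57 in vehicle and 2.36 to 2.66 in 25-HC. The 25-HC points of the remaining pairs lie within the vehicle range.

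The make-up of the IRAK group shows the same values as shares. Irak3 was 7.79%, 9.54% and 5.90% of the summed Irak1 to Irak4 TPM in vehicle 1, 2 and 3 and 15.05%, 15.6% and 14.4% in the 25-HC libraries. Irak1 held 19.4% to 20.5% in vehicle and 16.5% to 19.1% in 25-HC. Irak2 held the largest share in every library, 57.2% to 59.8% in 25-HC, and in vehicle 60.7%, 35.9% and 66.1%. Vehicle 2 was unlike the rest, with 35.1% of the sum from Irak4, against 7.32% to 12.2% in the other 5 libraries. Of the sum of all 9 members, Irak3 made 3.13% to 3.78% in vehicle and 7.71% to 8.01% in 25-HC.

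**Figure D4:**
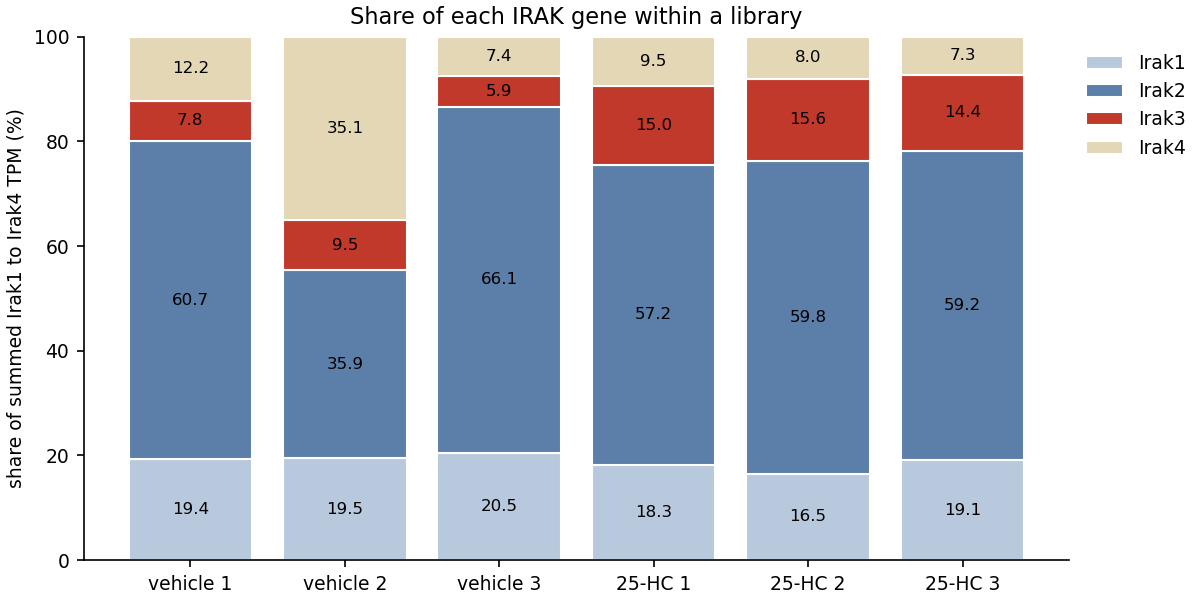
Share of Irak1, Irak2, Irak3 and Irak4 in their summed TPM (vertical axis, %) in each library, as stacked bars with the share printed. The Irak3 block (red) covers 5.90% to 9.54% in vehicle and 14.4% to 15.6% in 25-HC.

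In the order of levels within 25-HC, Irak2 (59.0 TPM) was followed by Myd88 (46.8 TPM), Tollip (26.2 TPM), Irak1 (18.1 TPM), Irak3 (15.1 TPM), Tirap (8.77 TPM), Irak4 (8.30 TPM), Tnfaip3 (6.69 TPM) and Traf6 (2.67 TPM). Of these neighbours only Tirap and Irak4 overlapped. In vehicle, where Irak2 (33.5 TPM) was again highest and Traf6 (1.09 TPM) lowest by the mean, every pair of neighbours overlapped. Irak3 was the 6th, 7th and 8th most abundant member in vehicle 1, 2 and 3 and the 5th in each 25-HC library.

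Genes whose levels ran most like those of 3 members over the 6 libraries were named by Pearson r of log2(TPM + 1), among 8434 other genes that averaged 5 TPM or more. For Irak3 these were Ide (0.9989), Cd300ld3 (0.9988) and Tlk2 (0.9985), and 85 genes reached 0.99. Ide, for instance, was at 3.70, 1.97 and 5.58 TPM in vehicle, against 9.63, 9.12 and 9.12 TPM with 25-HC. For Irak2 they were Pitpnb, Septin2 and Mbd1 (0.9999 each), with 1417 genes at 0.99 or more. For Tnfaip3 they were Sgpp1 (0.9998), Slc25a16 (0.9997) and Usp33 (0.9996), with 814 genes at that level. These are descriptions over 6 libraries that share the order of the vehicle libraries.

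The rest of the pathway was read from 5 lists, where a low gene passes the filter on its mean more readily if it is high with 25-HC. None of their 72 tested genes passed limma in either direction, with 12 higher and 2 lower at an unadjusted p under 0.05 (8.24% and 2.94% of all genes), and the genes named next have the smallest unadjusted p of their list. Medians of these lists are read against 0.52 over all genes tested, or 0.0085 after median-ratio rescaling. Of 17 receptors and co-receptors upstream of MyD88, 13 were tested, with a median log2 difference of 1.01 (0.71 after median-ratio rescaling, 0.48 after length correction, 0.62 without vehicle 2) and 7 higher in every 25-HC library, against 22.6% of all genes. Tlr13, an endosomal sensor of bacterial RNA, was at 1.08, 0.42 and 2.13 TPM in vehicle, against 5.04, 4.23 and 5.00 TPM with 25-HC. Tlr4, the lipopolysaccharide receptor, had a log2 difference of 1.52 (SE 0.45, limma adjusted p = 0.389). After median-ratio rescaling 9 of these 13 receptors separated upward and 1 downward, against 18.7% and 17.9% of all genes. After length correction 6 separated upward and 1 downward, against 17.1% and 18.7%. The downward gene in both settings was Cd14, named after its values were seen. It was at 559.75, 353.98 and 548.21 TPM in vehicle, against 362.39, 374.48 and 365.93 TPM with 25-HC. Its log2 difference was -0.38 with overlapping groups, -1.01 after median-ratio rescaling and -0.69 after length correction. Among the 7, Il1rap and Il1rl1 averaged 0.83 and 0.68 TPM in vehicle, against 2.22 and 1.73 TPM with 25-HC. Both thus passed the filter only through the 25-HC libraries, and both overlapped after length correction. Tlr5 and Tlr8 were listed at 0 in all libraries, and Il1r1 and Il18r1 did not exceed 0.02 TPM.

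Among 5 tested adaptors outside the MyD88 core (of 6 listed) the median was 0.71 (0.26 after median-ratio rescaling), and 1 separated upward, against 22.6% of all genes. This was Ticam2, the bridging adaptor of the TRIF arm, at 1.18, 0.14 and 3.12 TPM in vehicle, against 3.59, 4.63 and 4.62 TPM with 25-HC. Pik3ap1, an adaptor that links Toll-like receptors to PI3-kinase, overlapped, at 63.78 TPM in vehicle 3 and 45.22 to 50.36 TPM in 25-HC. Of 19 genes for ubiquitin and kinase steps after TRAF6, 16 were tested, with a median of 0.64 (0.098 after median-ratio rescaling, 0.20 without vehicle 2). Of these, 3 separated upward and 2 downward in the deposited TPM, near the 22.6% and 8.1% of all genes. After median-ratio rescaling 3 separated upward and 4 downward, against 18.7% and 17.9% of all genes. After length correction the counts were 3 and 5, against 17.1% and 18.7%. Tab2, which couples ubiquitin chains to the kinase TAK1, was at 3.24, 0.66 and 7.50 TPM in vehicle, against 12.57, 11.96 and 10.91 TPM with 25-HC. Tifa, a TRAF6-binding adaptor, had a log2 difference of 1.63 (SE 0.62, limma adjusted p = 0.389). The downward pair in the deposited TPM was Ube2v1 and Sharpin, named after their values were seen.

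Of 22 further inhibitors, 21 were tested, with a median of 0.60 (0.069 after median-ratio rescaling, 0.24 without vehicle 2). Of these, 6 separated upward, near the 22.6% of all genes, and none downward (8.1%). After median-ratio rescaling 3 separated upward and 2 downward, both below the shares of all genes (18.7% and 17.9%). Tax1bp1 and Itch, partners of A20, were at 1.65, 0.68 and 2.71 TPM and at 0.86, 0.53 and 1.73 TPM in vehicle. In 25-HC Tax1bp1 was at 5.40, 5.21 and 5.62 TPM and Itch at 3.40, 3.42 and 3.41 TPM, so that both were above every vehicle library. Itch overlapped after length correction. Of 19 early NF-kB target genes, 17 were tested, with a median of 0.60 (0.18 after median-ratio rescaling, 0.063 without vehicle 2). Of these, 4 separated upward and 2 downward, near the 22.6% and 8.1% of all genes, and after median-ratio rescaling 4 upward and 5 downward (18.7% and 17.9% of all genes). The downward pair was Traf1 and Ccl5. Traf1, a TRAF family member induced by NF-kB, was at 31.85, 25.53 and 26.55 TPM in vehicle, against 13.00, 12.39 and 13.05 TPM with 25-HC (log2 difference -1.06, SE 0.24, limma adjusted p = 0.389). Ccl5, a chemokine, was at 27.89, 38.02 and 20.26 TPM in vehicle, against 13.59, 15.13 and 13.06 TPM with 25-HC. The differences of Traf1 and Ccl5 were -1.67 and -1.56 after median-ratio rescaling and -1.69 and -0.91 after length correction.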

How the data were processed

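Bulk RNA of 6 RAW264.7 libraries was analysed. The authors deposited TPM per gene, and the submitters' processing notes name HISAT2, StringTie, RSEM and GRCm39, without versions or order. TPM keeps no counts, so depth is unknown and no counting interval is given. Of the deposited columns, 11 had no name and no values. The test was that of limma 3.58.1 (R 4.3.3) on log2(TPM + 1), over genes averaging 1 TPM or more (eBayes with trend, two-sided, Benjamini-Hochberg adjustment, threshold 0.05), with no block, and the fit was tested on simulated data. Ratios used exact permutation over libraries (scipy 1.17.1). Median-ratio factors were 0.409 for vehicle 2 and 0.973 to 1.32 for the others. Length correction used the longest GENCODE M21 transcript (92.1% of tested genes), by loess (span 0.75, degree 2). Groups and replicate numbers came from the titles. The named genes were the 9 members, per pathway list the called genes or else those with the 2 smallest p, and the most similar genes. Members, lists and most settings were chosen with earlier results of these data known. Alternatives were the pseudocount, filter, scaling, length, moderation, replicate block and each library left out.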

Additional observations from a re-analysis of the deposited data

How the results depend on the processing

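The number of genes called by limma was 1 (1352 at an unadjusted p under 0.05). It was 0 with a pseudocount of 5, with no filter, with a mean of at least 5 TPM and with the replicate block, 2 after median-ratio rescaling, 5 after quantile normalization, 19 after length correction and 14 after length and GC correction, and 0 to 722 when 1 library was left out, highest without vehicle 3. Titles give both groups the same replicate numbers, but same-numbered libraries deviated together only weakly (r = -0.013, 0.056 and 0.030), so the number was not taken as a pairing. With the replicate block Irak3 had a log2 difference of 2.01 and a limma adjusted p of 0.415, and no member passed.

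Irak3 kept its direction in all 17 tested alternatives (1.28 to 2.44, limma adjusted p = 0.0451 to 0.62). Most of these could not reverse it. Its groups did not overlap, which fixes the sign under another pseudocount or with 1 library left out. The filter, moderation and block settings left the difference at 2.01. Only the scalings and corrections could have changed the sign, and there it was 1.38 to 1.55. Irak3 passed in 3 alternatives, at 1.43 after length correction, 1.38 after length and GC correction and 2.44 without vehicle 3, against 1.50 without vehicle 2. Tirap ranged from 0.57 to 1.97 when 1 library was left out, and passed only without vehicle 3. Irak4 reversed to -0.0028, -0.13, -0.087 and -0.14 after median-ratio rescaling, quantile normalization, length correction, and length and GC correction. The other members kept their sign in every alternative with a test and passed in none. Traf6 was not tested with a mean of at least 5 TPM. Separated members numbered 3 to 9 when 1 library was left out, with 9 without vehicle 3.

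Against vehicle 3 alone, with no test, the differences were 0.083 (Myd88), -0.45 (Tirap), -0.26 (Irak1), -0.24 (Irak2), 1.15 (Irak3), 0.066 (Irak4), 0.31 (Traf6), -0.083 (Tollip) and -0.059 (Tnfaip3), with a median of -0.059. In the same setting the list medians were 0.19 (receptors), -0.24 (other adaptors), -0.19 (steps after TRAF6), -0.076 (other inhibitors) and -0.20 (NF-kB targets). The receptors' median was 1.67 with a pseudocount of 0.1. That of the other adaptors was 0.26 after median-ratio rescaling, 0.078 after quantile normalization, 0.031 after length correction, 0.14 after length and GC correction and 0.27 to 1.19 with 1 library left out. The median of the steps after TRAF6 was 0.063 after length and GC correction, and that of the NF-kB targets was 0.028 after quantile normalization, -0.050 after length correction and 0.063 to 1.23 with 1 library left out.

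The ratio of Irak3 to Irak4 kept its direction in all 11 alternatives. Its groups did not overlap, so leaving libraries out or adding the replicate block could not reverse it. In the settings that could, it was 1.52 (quantile normalization), 1.51 (length correction) and 1.53 (length and GC correction). Irak1 to Irak4 and Irak2 to Irak4 reversed against vehicle 3 alone (-0.34 and -0.32). Ratios after quantile normalization, length correction, and length and GC correction were taken on log2(TPM + 1), and all others on log2(TPM). A change in those settings therefore mixes the scale with the correction. Tnfaip3 to Traf6 was 0.032 after length correction and 0.044 after length and GC correction. Its sign was already positive on log2(TPM + 1) without correction, where Tnfaip3 and Traf6 had differences of 0.91 and 0.88. Tirap to Myd88 reversed after length correction (-0.051), length and GC correction (-0.20) and against vehicle 3 alone (-0.57). On log2(TPM + 1) without correction, Tirap and Myd88 had differences of 1.17 and 1.00. Tollip to Myd88 reversed after quantile normalization (-0.023), length correction (-0.078), length and GC correction (-0.17) and against vehicle 3 alone (-0.17), and was -0.074 to 0.29 with 1 library left out. Where a result changed, the cause was not tested. TPM holds no counts, so the precision of low members such as Traf6 is unknown.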
